A study of Mus musculus with 16 samples.

Results

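Complex I of the mitochondrial respiratory chain is built from nuclear and mitochondrial gene products, and the nuclear ones carry symbols that start with Nduf. All 46 protein-coding genes of GENCODE M21 with such a symbol were taken, out of 51060 genes with transcripts in the files, and all 46 were among the 15632 genes with enough counts to be tested. They comprised 38 genes named as subunits (Ndufa, Ndufab, Ndufb, Ndufc, Ndufs and Ndufv) and 8 named as assembly factors (Ndufaf). Membership was set by the symbol alone and by no measured value, but the family was taken up with earlier results of these data known. Among the 38, Ndufa4 and Ndufa4l2 keep an Nduf symbol but are not counted as complex I subunits today, since Ndufa4 belongs to cytochrome c oxidase and Ndufa4l2 is its close relative, which leaves 36 subunits of complex I.

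The libraries came from interscapular brown adipose tissue (BAT) of 16 animals, 4 per genotype and sex, each 7 weeks old, on the C57Bl/6J background, fed chow and kept at room temperature. OPA1 brown adipocyte knockout (OPA1 BKO, here BKO) mice carried floxed alleles of Opa1, the gene of an inner membrane GTPase needed for mitochondrial fusion, together with Cre recombinase driven by the Ucp1 promoter, which is active in brown adipocytes. The WT mice were littermates with the same floxed alleles and no Cre, so the deletion and the transgene cannot be told apart, and the other cells of the tissue kept Opa1 in both genotypes. Opa1 was 184 ± 18.3 normalized counts (CPM, scaled to the TMM-normalized library size; SD, n = 8) in WT, against 26.2 ± 7.32 CPM (SD, n = 8) in BKO mice, with ranges of 152 to 209.6 and 17.9 to 36.9 CPM, so each library was on the side that its label gave. Mice are named here by library number, S01 to S16.

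Complex I, NADH:ubiquinone oxidoreductase, is the entry point of the respiratory chain for electrons from NADH. Its matrix arm holds the N module, which oxidizes NADH through a flavin and a row of iron-sulfur clusters, and the Q module, which hands the electrons to ubiquinone. Its membrane arm, the P module, pumps protons, and the proton-pumping subunits themselves are encoded by the mitochondrial genome (mt-Nd genes). Core subunits carry out catalysis and are shared with bacteria, while accessory subunits surround them and are needed for assembly and stability. Assembly factors bind intermediates and leave before the complex is finished. Brown adipocytes are rich in mitochondria and oxidize fuel at a high rate for heat, so the genes of the respiratory chain are among the abundant transcripts of BAT.

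The libraries held between 13607283 and 23114534 estimated counts. Genes of the mitochondrial genome took 23.3% to 30.5% of the counts in WT and 4.44% to 9.02% in BKO mice. This difference made the scaling between genotypes matter. With trimmed mean (TMM) normalization the median log2 fold change over all genes tested was 0.01, and with library size alone it was 0.57, so that most nuclear genes came out higher in BKO mice. Levels are TMM-normalized CPM unless stated, and each direction below is relative to this normalization. Skeletal muscle markers ranged from 3.26 to 16470 CPM in sum between mice, and were above 5000 CPM in 3 mice (BKO male S04, BKO female S06 and WT female S09).

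The WT males S03, S11 and S15 stood apart from the other libraries in a way that bears on these genes, many of which have short transcripts. A length index was computed for each mouse, with the log2 level of each gene taken relative to its mean over all mice. The index was the median of 968 nuclear genes with transcripts under 800 bases minus that of 6490 with transcripts of 3000 bases or more. The Nduf genes were left out. The length index was 0.505 in S11, 0.359 in S15 and 0.25 in S03. In the other WT mice it lay between -0.12 and 0.05, in BKO male S12 it was 0.161, and in the other BKO mice it lay between -0.30 and -0.05. The same 3 WT males also had the highest mean level of the subunit genes, 8.47 to 8.55 on the log2 scale. The part of this difference between libraries in the results was not tested as such, and results are therefore also given without these 3 mice and with the length index in the fit. Without them S07 is the only WT male, so any contrast with WT males then rests on 1 mouse, assumed to vary like the other groups, and calls lost there can come from the loss of replicates.

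**Figure D1:**
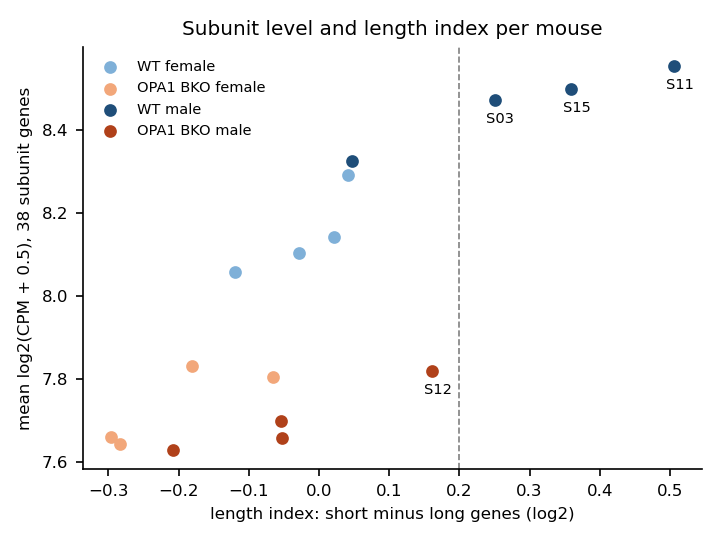
Mean log2(CPM + 0.5) of the 38 subunit genes (vertical axis) against the length index in log2 units (horizontal axis), with 1 point for each of the 16 mice coloured by group and a dashed line at 0.2. The 3 WT males to the right of the line (0.25 to 0.505) had the highest subunit levels of all mice, and all BKO mice (7.63 to 7.83) lay below all WT mice (8.06 to 8.55).

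Nuclear complex I transcripts were lower in BKO mice. Of the 46 genes, 42 fell, 1 rose (Ndufaf4) and 3 did not pass the test (Ndufs1, Ndufa4l2 and Ndufaf6), by edgeR's quasi-likelihood test with Benjamini-Hochberg adjustment over all genes. For comparison, 20.2% of all genes tested were called lower and 20.8% higher. By these counts and medians the subunits fell more than the assembly factors. The classes also differed in level, and the part of level in this difference was not tested. Of the 38 subunits 36 fell, with a median log2 fold change of -0.57 and a range from -1.20 to -0.09, whereas 6 of 8 assembly factors fell, with a median of -0.34. The median over the 36 true complex I subunits was also -0.57. Every BKO mouse was below every WT mouse for 29 of 38 subunits and for 2 of 8 assembly factors, against 4.89% of all genes tested, and no member was higher in every BKO mouse than in every WT mouse (5.07% of all genes).

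These directions depended on the scaling. With library size alone 24 of the 46 genes changed sign, 7 were called lower and 11 higher, against 2.39% and 69.5% of all genes. With TMM and the mitochondrial genes left out, the medians were -0.57 for the subunits and -0.34 for the assembly factors. Relative to the median of all genes, the median of the subunits was -0.58 and that of the assembly factors -0.35 with TMM, with DESeq2's size factors and with library size alone, and all 38 subunits lay below the median of all genes under each. Without the 3 WT males 37 of 46 genes fell, against 12.7% of all genes, and the medians were -0.47 for the subunits and -0.28 for the assembly factors. With the length index as a covariate 31 fell, against 12% of all genes.

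**Figure D2:**
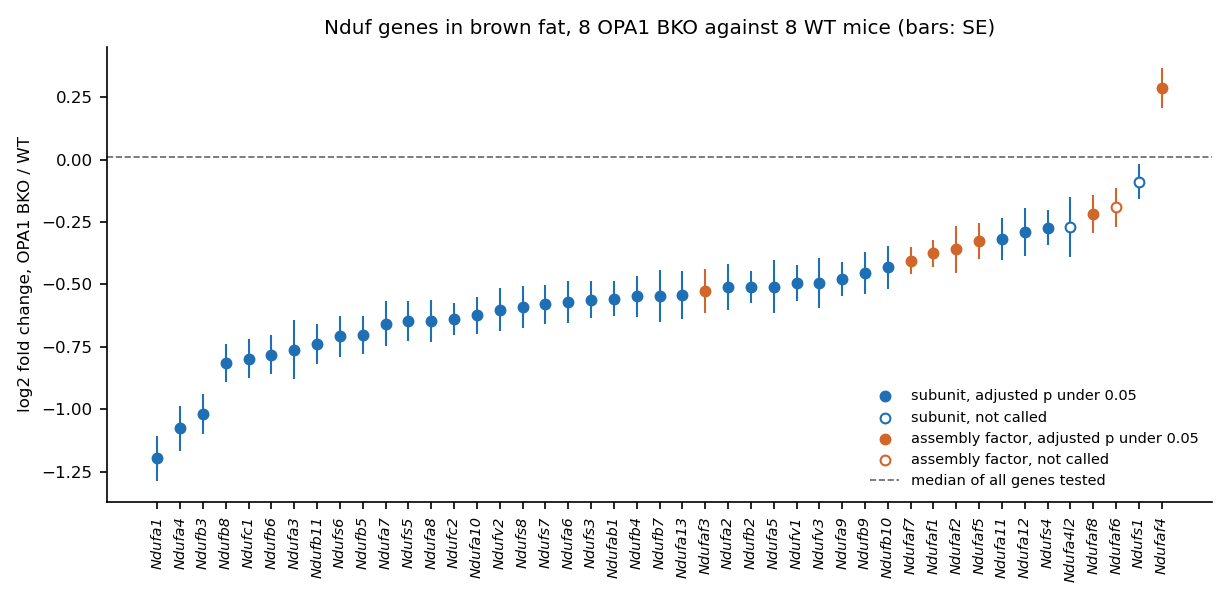
Log2 fold change of BKO over WT (vertical axis, bars are SE) for 45 of the 46 Nduf genes, ordered by value, for 8 mice per genotype with subunits and assembly factors coloured apart and filled points for adjusted p under 0.05. All but Ndufaf4 lay below the dashed median of all genes (0.01) with TMM scaling, whereas library size alone turned the sign of 24 of the 46.

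In each mouse, the mean log2 level of the 38 subunit genes was computed with 0.5 added to the CPM. It was 8.31 ± 0.19 (SD, n = 8) in WT and 7.72 ± 0.086 (SD, n = 8) in BKO mice. The lowest WT mouse was S01 at 8.06 and the highest BKO mouse was S10 at 7.83, so the genotypes did not overlap. For the 8 assembly factors the mean was 4.82 ± 0.11 (SD, n = 8) in WT and 4.56 ± 0.060 (SD, n = 8) in BKO mice, again without overlap (4.70 to 4.997 against 4.48 to 4.64). The distance between both classes within a mouse barely depends on the scaling between mice, though it is not corrected for length. It was 3.49 ± 0.11 log2 units (SD, n = 8) in WT and 3.15 ± 0.077 (SD, n = 8) in BKO mice, and every BKO mouse (3.05 to 3.26) was below every WT mouse (3.28 to 3.61). In these bulk samples, fewer cells of a type and less RNA per cell cannot be told apart.

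**Figure D3:**
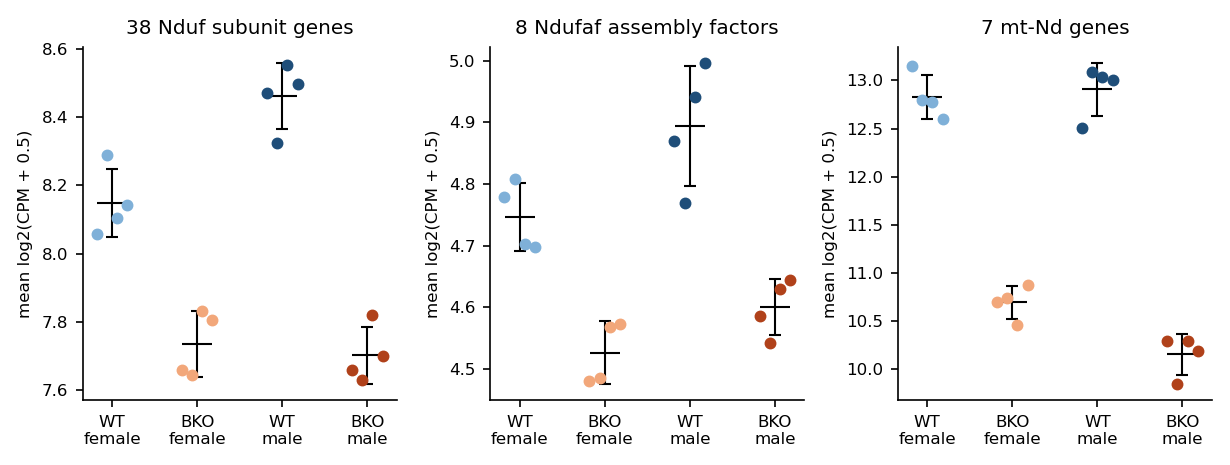
Mean log2(CPM + 0.5) per mouse (vertical axis) of the 38 subunit genes and of the 8 assembly factors in the 4 groups, with 1 point per mouse and black bars for the group mean ± SD (n = 4). With TMM scaling, BKO mice (7.63 to 7.83) lay below WT mice (8.06 to 8.55) for the subunits, while with library size alone the median log2 fold change was -0.011 for the subunits and 0.21 for the assembly factors.

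Among the subunits, the decrease was found in every part of the enzyme. In the N module 9 of 10 subunits fell, with a median log2 fold change of -0.50. All 5 subunits of the Q module fell, with a median of -0.56. In the membrane arm all 10 subunits of the proximal part fell, with a median of -0.64, and all 11 of the distal part, with a median of -0.56. Core and accessory subunits had similar medians, -0.56 for the 7 nuclear core subunits, of which 6 fell, and -0.57 for the 29 accessory subunits, all of which fell.

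The largest decreases were in accessory subunits of the membrane arm and in Ndufa4. Ndufa1, an accessory subunit of the proximal membrane arm that is encoded on the X chromosome (ENSMUSG00000016427.7, GRCm38 chrX:37187588-37191163, minus strand), was 251, 316, 248 and 261 CPM in WT females and 368, 329, 354 and 345 CPM in WT males. It was 125, 132, 126 and 162 CPM in BKO females and 122, 125, 146 and 131 CPM in BKO males. The highest BKO mouse was thus below the lowest WT mouse, and the log2 fold change was -1.20 ± 0.090 (SE, adjusted p = 6.24e-08, edgeR). Its promoter is shown as that of the nuclear gene which fell most. The 250 bases before the RefSeq transcription start (GRCm38.p6 chrX:37191239-37191488, minus strand, 5′ to 3′) held none of the motifs searched and so no capitals:
Ndufa1: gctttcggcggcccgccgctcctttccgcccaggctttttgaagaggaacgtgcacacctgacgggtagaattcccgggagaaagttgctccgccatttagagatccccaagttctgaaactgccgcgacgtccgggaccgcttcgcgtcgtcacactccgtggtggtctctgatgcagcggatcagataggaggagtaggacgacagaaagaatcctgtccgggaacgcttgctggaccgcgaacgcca

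Ndufa4 (GRCm38 chr6:11900292-11907497, minus strand), the cytochrome c oxidase subunit with an Nduf symbol, came next in the size of the decrease. Its levels were 827, 947, 828 and 867 CPM in WT females and 1195, 1022, 1185 and 1196 CPM in WT males. In BKO mice it was 456, 438, 515 and 527 CPM in females and 461, 416, 511 and 462 CPM in males. Every BKO mouse was lower than every WT mouse, with a log2 fold change of -1.08 ± 0.089 (SE, adjusted p = 1.64e-07, edgeR). Its relative Ndufa4l2, known as a gene induced by hypoxia, was 9.16 ± 1.77 CPM in WT and 7.60 ± 1.09 CPM in BKO mice (SD, n = 8), and its difference of -0.27 ± 0.12 (SE) did not pass the test (adjusted p = 0.0808, edgeR). The mice overlapped widely for Ndufa4l2 (6.25 to 12.2 CPM in WT and 6.21 to 9.66 CPM in BKO mice). Ndufa4l2 was called lower without WT male S07 (-0.36, adjusted p = 0.00969) or BKO male S12 (-0.32, adjusted p = 0.0483, edgeR). With the length index as a covariate its value was 0.0195 (adjusted p = 0.945, edgeR).

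Ndufb3, an accessory subunit of the distal membrane arm (GRCm38 chr1:58586384-58595964, plus strand), had a lowest, median and highest level of 235, 267 and 352 CPM in WT mice and of 120.4, 135 and 151 CPM in BKO mice. The groups did not overlap, and the log2 fold change was -1.02 ± 0.078 (SE, adjusted p = 7.51e-08, edgeR). Ndufb8 (GRCm38 chr19:44548572-44555440, minus strand), also of the distal arm and a subunit whose protein is lost when complex I is not assembled, was 797, 999 and 1139.9 CPM in WT and 513, 539 and 574 CPM in BKO mice. It fell by 0.82 on the log2 scale (SE 0.076, adjusted p = 6.47e-07, edgeR), without overlap. Ndufc1, a small accessory subunit of the proximal arm (GRCm38 chr3:51404677-51408988, minus strand), was 155, 198 and 235 CPM in WT and 104, 111 and 117 CPM in BKO mice, again without overlap (log2 fold change -0.80 ± 0.079 SE, adjusted p = 1.30e-06, edgeR). The spread within BKO mice was small for Ndufb8 and Ndufc1, with SDs of 25.5 and 4.40 CPM, against 137 and 31.2 CPM in WT mice.

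**Figure D4:**
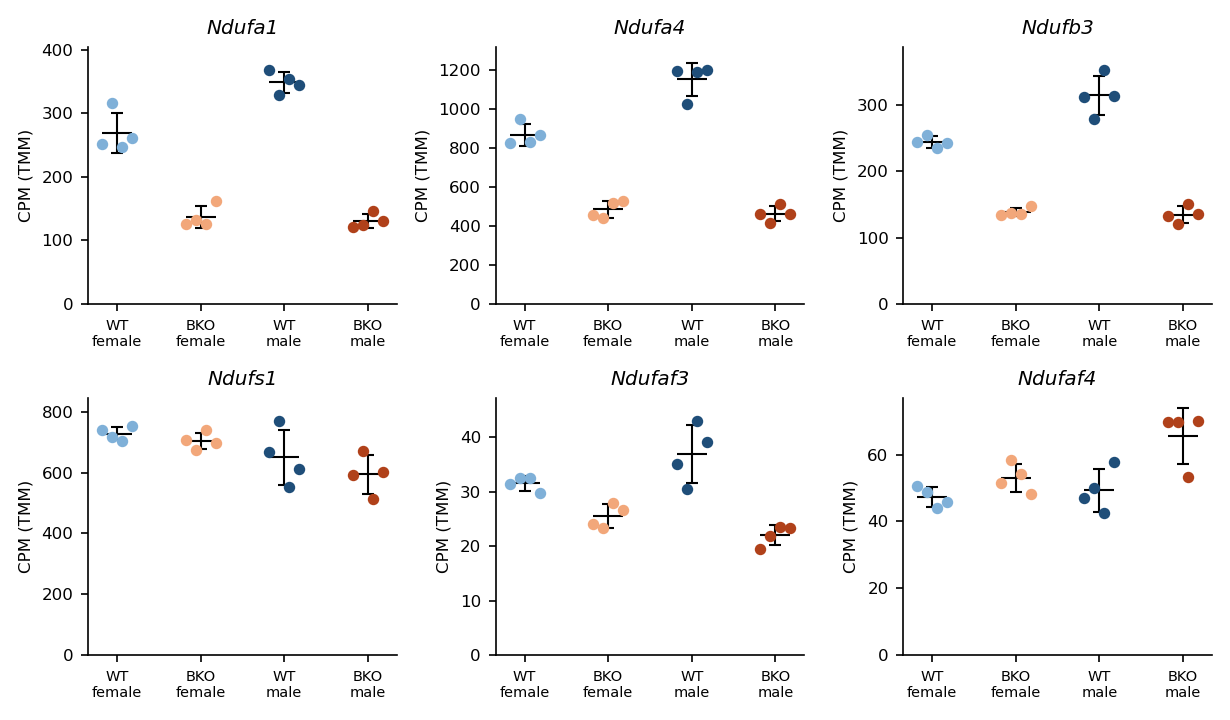
TMM-normalized CPM (vertical axes, from 0) of Ndufa1, Ndufa4, Ndufb3, Ndufs1, Ndufaf3 and Ndufaf4 in the 4 groups, with 1 point per mouse and black bars for the group mean ± SD (n = 4). Ndufa1, Ndufa4, Ndufb3 and Ndufaf3 did not overlap between genotypes, Ndufs1 overlapped, and Ndufaf4 was higher in BKO mice; with library size alone Ndufs1 and Ndufaf3 had a positive log2 fold change (0.47 and 0.026).

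The nuclear core subunits differed in how far they fell. In the N module, Ndufv1, which binds NADH and the flavin, was 902 ± 96.6 CPM in WT females, 688 ± 38.7 in BKO females, 965 ± 107 in WT males and 638 ± 38.3 in BKO males (SD, n = 4 each). Its log2 fold change over both sexes was -0.49 (adjusted p = 7.30e-05, edgeR). Ndufv2, its iron-sulfur partner, was 503 ± 37.6, 372 ± 45.7, 604 ± 64.3 and 354 ± 33.2 CPM in the same order of groups (log2 fold change -0.60, adjusted p = 4.68e-05, edgeR). Both genes passed the test in females (adjusted p = 0.0127 and 0.0115) and in males (adjusted p = 0.000307 and 8.12e-05, edgeR).

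Ndufs1, the largest core subunit and the carrier of most iron-sulfur clusters of the N module (GRCm38 chr1:63143596-63176833, minus strand), stood apart from the other core subunits. It was 729 ± 21.8 CPM in WT females, 705 ± 26.3 in BKO females, 650.2 ± 91.7 in WT males and 595 ± 63.7 in BKO males (SD, n = 4 each). The lowest, median and highest mice were at 554, 711 and 769 CPM in WT and at 515, 673 and 739 CPM in BKO mice, so the groups overlapped almost completely. The log2 fold change was -0.09 ± 0.072 (SE, adjusted p = 0.344, edgeR), the least negative among the subunits in this fit. With the length index as a covariate, Ndufs1 was called lower (-0.26, adjusted p = 0.023, edgeR), so its distance from the other core subunits depended on the fit.

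In the Q module, Ndufs3, which is built in early and seeds this module, was 233 ± 26.4 CPM in WT females, 174 ± 17.9 in BKO females, 269 ± 12.04 in WT males and 166 ± 9.65 in BKO males (SD, n = 4 each), with a log2 fold change of -0.56. Ndufs7 and Ndufs8 carry the last iron-sulfur clusters before ubiquinone. Ndufs7 was 309 ± 24.4, 234 ± 22.03, 382 ± 32.0 and 225 ± 17.4 CPM, and Ndufs8 was 283 ± 22.4, 210.5 ± 19.3, 335 ± 29.1 and 199 ± 26.7 CPM in the same order, with log2 fold changes of -0.58 and -0.59. The adjusted p-values of these 3 genes were 2.12e-05, 3.40e-05 and 4.03e-05 (edgeR), and each was lower in BKO mice of both sexes.

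Of the accessory subunits, Ndufs4 had the smallest decrease. Ndufs4, a subunit at the joint of the N and Q modules whose loss causes Leigh syndrome, was 236, 325 and 357 CPM in WT (lowest, median and highest of 8 mice) and 225, 250.3 and 279 CPM in BKO mice. Its log2 fold change was -0.27 ± 0.071 (SE, adjusted p = 0.00560, edgeR), and the genotypes overlapped. The call of Ndufs4 was lost without the 3 WT males of high length index (-0.22, adjusted p = 0.0767, edgeR) and with the length index as a covariate (-0.20, adjusted p = 0.151, edgeR). The neighbouring N module subunit Ndufa12 and the membrane subunit Ndufa11 followed, with log2 fold changes of -0.29 and -0.32. Without the same 3 mice both calls were lost, at -0.15 for Ndufa12 (adjusted p = 0.283) and -0.17 for Ndufa11 (adjusted p = 0.127, edgeR), and with the covariate the values were 0.026 and -0.05 (adjusted p = 0.852 and 0.69, edgeR). Ndufa12 also lost its call without BKO male S04 or S08, without the 3 mice of high muscle markers and with no filter on low counts (-0.26 to -0.24, adjusted p = 0.0501 to 0.0986, edgeR). The other 26 accessory subunits of complex I lay between -0.43 (Ndufb10) and -1.20 (Ndufa1). Ndufab1, the mitochondrial acyl carrier protein that is also a subunit of complex I, was among them at -0.56, as were Ndufa10 at -0.62 and Ndufa9 at -0.48.

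The 8 assembly factors are given each, since their values differed in size and in 1 case in direction. Ndufaf3, which binds the Q module early in assembly, was 29.7, 32.6 and 42.9 CPM in WT (lowest, median and highest of 8 mice) and 19.5, 23.4 and 27.9 CPM in BKO mice. It had the largest decrease of the class, without overlap (log2 fold change -0.53 ± 0.089 SE, adjusted p = 0.000213, edgeR). Ndufaf7, a methyltransferase needed for assembly, was 36.2, 41.0 and 44.2 CPM in WT and 28.3, 30.7 and 34.9 CPM in BKO mice, the other assembly factor without overlap (-0.41 ± 0.054 SE, adjusted p = 2.33e-05, edgeR). Ndufaf1, which works on the membrane arm, was 43.8, 49.5 and 58.7 CPM in WT and 36.6, 38.3 and 44.2 CPM in BKO mice, where only the ends of the ranges met (-0.38 ± 0.054 SE, adjusted p = 5.44e-05, edgeR).

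Ndufaf5, which hydroxylates Ndufs7, was 26.7, 29.7 and 34.2 CPM in WT and 20.7, 24.1 and 27.2 CPM in BKO mice (-0.33, adjusted p = 0.00189, edgeR). Its partner Ndufaf8 was 12.7, 17.4 and 19.9 CPM in WT and 12.9, 14.1 and 17.0 CPM in BKO mice (-0.22, adjusted p = 0.0297, edgeR). Apart from library size alone, Ndufaf8 lost its call in 10 of 25 alternatives, the most of any member, with values from -0.27 to -0.14 over all 25. They included leaving out any 1 of WT females S01 and S05, WT male S15, BKO female S06 and BKO males S08 and S16 (adjusted p = 0.0536 to 0.0601, edgeR), and the length index as a covariate (adjusted p = 0.365, edgeR). Ndufaf2, a relative of Ndufa12 that acts late in assembly, was 13.6, 16.2 and 20.4 CPM in WT and 10.3, 12.5 and 17.0 CPM in BKO mice (-0.36, adjusted p = 0.00610, edgeR). The genotypes overlapped for these 3 genes, and 65.1% of the 31-base words of Ndufaf2 transcripts also occur in the gene B230220B15Rik, so its counts are uncertain. With the length index as a covariate Ndufaf5 (-0.25, adjusted p = 0.0834) and Ndufaf2 (-0.14, adjusted p = 0.394, edgeR) were not called, nor was Ndufaf2 without the 3 WT males (-0.27, adjusted p = 0.1, edgeR). Ndufaf6, needed early in assembly, was 10.7, 12.6 and 14.1 CPM in WT and 9.03, 11.1 and 11.9 CPM in BKO mice, and its log2 fold change of -0.19 ± 0.078 (SE) did not pass the test (adjusted p = 0.0598, edgeR). Ndufaf6 was called lower without WT female S01, WT male S07 or BKO female S10 (-0.23 to -0.21, adjusted p = 0.0334 to 0.047, edgeR). With the length index as a covariate its value was 0.021 (adjusted p = 0.891, edgeR).

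Ndufaf4, which acts with Ndufaf3 on the Q module (GRCm38 chr4:24898083-24905001, plus strand), was the only member called higher. It was 42.6, 47.9 and 57.7 CPM in WT and 48.1, 56.2 and 69.98 CPM in BKO mice (lowest, median and highest of 8), so the genotypes overlapped while the median was higher in BKO mice. The log2 fold change was 0.29 ± 0.080 (SE, adjusted p = 0.00881, edgeR), and its direction was positive under each scaling tried. Within the sexes it was 0.16 in females (adjusted p = 0.321) and 0.41 in males (adjusted p = 0.00749, edgeR), and the interaction of genotype and sex did not pass the test (adjusted p = 0.503, edgeR). The call was lost without the 3 WT males of high length index (0.23, adjusted p = 0.0760), without the 3 mice of high muscle markers (0.24, adjusted p = 0.0597) and with the length index as a covariate (0.10, adjusted p = 0.511), all by edgeR. The Ndufaf4 promoter is shown because it is that of the member which moved against the others, and because it holds the motif of NRF1, a factor of nuclear respiratory genes, in capitals. The 250 bases before the RefSeq start were GRCm38.p6 chr4:24897833-24898082, plus strand, 5′ to 3′:
Ndufaf4: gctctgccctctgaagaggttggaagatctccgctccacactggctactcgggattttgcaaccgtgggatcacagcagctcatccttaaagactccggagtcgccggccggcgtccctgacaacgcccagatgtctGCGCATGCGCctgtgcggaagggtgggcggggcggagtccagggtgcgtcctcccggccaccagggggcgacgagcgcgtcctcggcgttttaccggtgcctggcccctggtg

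Levels of different genes were compared per length, as TPM rescaled to the same total over nuclear genes in each mouse. In WT mice the 38 subunits had a median of 814 nuclear TPM and the 8 assembly factors a median of 42.1. Ndufa4 was at 3500.2 ± 345 nuclear TPM (SD, n = 8) and Ndufb8 at 2456 ± 203, and each stood clear of the next gene in every WT mouse. Ndufb9 (1763 ± 149) and Ndufab1 (1735 ± 111) followed and did not differ beyond their spread. The lowest complex I subunits were Ndufb4 at 193 ± 27.0 and Ndufa11 at 92.1 ± 12.1, each apart from its neighbours in the order. Below them came the assembly factors, from Ndufaf1 at 59.3 ± 4.63 to Ndufaf6 at 22.8 ± 2.22, and Ndufa4l2 was last at 17.4 ± 3.57. Of the 45 steps in this order 6 were without overlap between mice.

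Some members changed rank in BKO mice on the same scale. Ndufa1 went from rank 5 to rank 8 with 979 ± 69.4 nuclear TPM (SD, n = 8), and Ndufb3 from rank 28 to rank 33. Ndufs4 went up from rank 17 to rank 9, and Ndufaf4 from rank 43 to rank 40, with 36.5 ± 3.03 nuclear TPM in WT and 62.9 ± 9.87 in BKO mice (SD, n = 8). The medians were 770.4 for subunits and 49.3 for assembly factors in BKO mice. For the assembly factors this was above the WT median of 42.1, whereas most of them fell in TMM-normalized CPM. Mouse by mouse, the median of the assembly factors was 38.3 to 46.9 in WT and 47.5 to 52.6 in BKO mice, without overlap. That of the 36 complex I subunits was 742 to 869 in WT and 714 to 908 in BKO mice. The genotypes thus overlapped for the subunits on this scale, unlike in TMM-normalized CPM. This scale sets the sum of all nuclear genes equal, so differences between genotypes on it are not those of the TMM-normalized CPM.

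**Figure D5:**
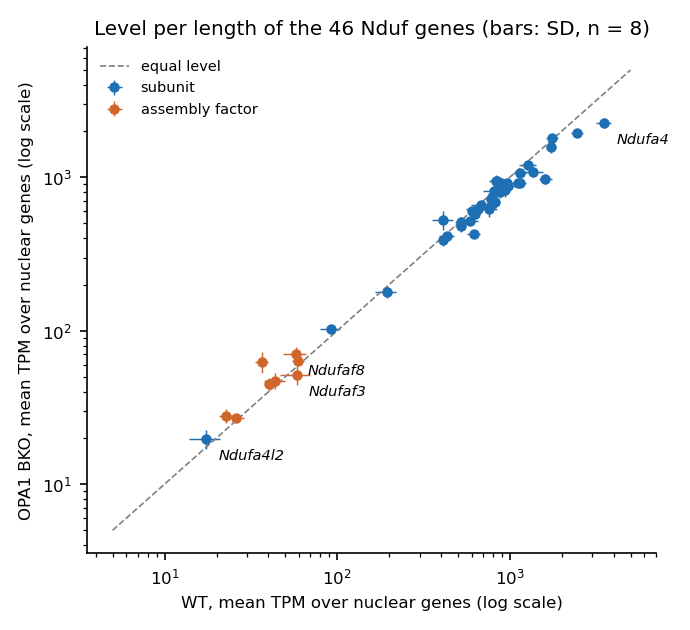
Mean TPM over nuclear genes in BKO (vertical axis) against WT mice (horizontal axis), both on log scales, for the 46 Nduf genes, with bars for the SD (n = 8) and a dashed line of equal level. Assembly factors (22.8 to 59.3 in WT) lay apart from the complex I subunits (92.1 to 2456 in WT). On this scale Ndufa4, Ndufa1 and Ndufb3 lay below the line, and Ndufaf4 was among the assembly factors above it. The median of the assembly factors was 42.1 in WT and 49.3 in BKO mice.

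The decrease was read separately in each sex, and the sexes were compared by the interaction term. In females 28 of 46 genes fell and none rose, against 9.03% of all genes called lower and 8.96% higher, and the median log2 fold change was -0.39. In males 41 fell and 1 rose (Ndufaf4), against 16.9% of all genes called lower and 17.9% higher, with a median of -0.75. Ndufa1 fell by 0.98 in females and by 1.41 in males on the log2 scale, and Ndufb8 by 0.61 and 1.02. Without the 3 WT males 29 genes fell in each sex, against 8.0% of all genes in females and 4.88% in males, the latter with S07 as the only WT male.

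By edgeR, 0 members had an interaction of genotype and sex at an adjusted p under 0.05, as did 0.115% of all genes. At an unadjusted p under 0.05 there were 30 members with a larger decrease in males, against 6.06% of all genes, and 0 with a smaller one, against 7.06%. DESeq2 called 12 members, against 0.8% of all genes. Without the 3 WT males 4 members reached an unadjusted p under 0.05 in this direction, against 4.44% of all genes, and 1 in the other direction, against 5.24%. That fit had 1 WT male (S07), so the lower count cannot be told apart from the loss of replicates.

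Male and female WT mice were compared next. The subunits had a median log2 difference of 0.34 (male over female), positive in 37 of 38 genes. Only Ndufa2, an accessory subunit of the N module, was called higher in males by edgeR, against 0.16% of all genes. It was 160.6 to 190.6 CPM in WT females (mean 173 ± 13.3 SD, n = 4) and 205 to 264 CPM in WT males (mean 244 ± 26.5 SD, n = 4), without overlap (log2 difference 0.50 ± 0.093 SE, adjusted p = 0.0407, edgeR). At an unadjusted p under 0.05 there were 35 members higher in WT males, against 9.29% of all genes, and 0 lower, against 7.26%. DESeq2 called 24 higher, against 2.5% of all genes. Without WT males S03, S11 and S15 the counts at an unadjusted p under 0.05 were 1 higher (2.39% of all genes) and 1 lower (3.23%), and Ndufa2 had an adjusted p of 0.893 (edgeR), in a contrast of 1 male (S07) with 4 females that says little about these genes. Leaving out 1 mouse at a time gave between 0 and 20 calls by edgeR, with 20 without WT male S07 and 16 without WT female S05.

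The subunits share short transcripts, and length moved with the fold change. Across the 38 subunits, Spearman's correlation of mean transcript length with the log2 fold change was 0.53, a description over genes that share libraries and depth, and across all genes it was 0.17. Genes under 800 bases numbered 1009 in all and were 32.9% called lower, around a median log2 fold change of -0.22. The 21 subunits under 800 bases had a median of -0.65 and all fell. The 17 subunits of 800 bases or more had a median of -0.54, and 88.2% of them fell. The level of a gene also went with its fold change. Across the 46 members, Spearman's correlation of mean nuclear TPM with the log2 fold change was -0.52. It was -0.29 across the 38 subunits and -0.11 across all genes. The part of length in the decrease was not tested beyond these values and the covariate given above, and the part of level was not tested.

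The mitochondrially encoded subunits of complex I fell further than any nuclear one. All 7 mt-Nd genes were lower in BKO mice, with log2 fold changes from -2.17 (mt-Nd2) to -2.73 (mt-Nd4). For mt-Nd1, which forms part of the ubiquinone channel, the level was 19780 ± 2455 CPM in WT and 3890.2 ± 638 CPM in BKO mice (SD, n = 8), with a log2 fold change of -2.36 (adjusted p = 3.30e-10, edgeR). The ratio of counts of the mt-Nd genes to those of the 36 nuclear complex I subunits compares both genomes within a library and does not depend on scaling between mice. It was 5.85 ± 1.05 (SD, n = 8) in WT and 1.58 ± 0.30 (SD, n = 8) in BKO mice. The lowest WT mouse (3.97) was above the highest BKO mouse (1.97). Because the libraries were selected for polyadenylated RNA, mitochondrial transcripts were measured only as far as they were captured by that selection.

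Assembly factors without an Nduf symbol were taken from a list of 12, of which 10 were found under the listed symbols. Of these 10, 6 fell and none rose, against 20.2% and 20.8% of all genes. With library size alone 0 were called lower, against 2.39% of all genes. Ecsit, Acad9, Tmem126b, Timmdc1, Foxred1, Nubpl and Lyrm2 were then called higher (0.16 to 0.52), against 69.5% of all genes. The values that follow are with TMM. Tmem70, which also serves ATP synthase, had the largest decrease at -0.66, from 109 ± 10.9 to 68.7 ± 5.81 CPM (SD, n = 8, adjusted p = 3.54e-06, edgeR). Dmac1, a factor of the distal membrane arm, was at -0.50, and Foxred1, a flavoprotein of late assembly, at -0.40. Tmem186, Tmem126b and Ecsit, which work with Ndufaf1 on the membrane arm, were at -0.38, -0.34 and -0.24. The other 4 did not pass the test, namely Lyrm2 (-0.20), Timmdc1 (-0.13), Nubpl (-0.10) and Acad9 (-0.03), the last of which is both a partner of Ndufaf1 and an acyl-CoA dehydrogenase.

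Other families of the respiratory chain are given beside the Nduf genes, without a test between families. Over all genes tested, 20.2% were called lower and 20.8% higher. Of 16 cytochrome c oxidase genes 13 fell (median log2 fold change -0.59), of 8 complex III genes all 8 fell (-0.61), and of 4 complex II genes 3 fell (-0.51). Of 17 ATP synthase genes 12 fell and 1 rose (median -0.41). Of 78 genes of the mitochondrial ribosome 55 fell and 1 rose (-0.27). With library size alone these medians lay between -0.056 (complex III) and 0.28 (mitochondrial ribosome), as did that of the Nduf subunits (-0.011). With TMM the median of the Nduf subunits (-0.57) was close to those of complex III and cytochrome c oxidase and below that of the mitochondrial ribosome.

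Regulators known for nuclear respiratory genes did not fall. Nrf1, nuclear respiratory factor 1, was 13.9 ± 1.48 CPM in WT and 29.7 ± 3.42 CPM in BKO mice (SD, n = 8), without overlap (11.6 to 15.9 against 23.0 to 34.2). Its log2 fold change was 1.097 ± 0.085 (SE, adjusted p = 8.53e-08, edgeR). Gabpa, the DNA-binding subunit of GABP, also rose without overlap, from 40.1 ± 4.41 to 67.1 ± 10.4 CPM (0.74, adjusted p = 1.02e-05, edgeR). Ppargc1b, a coactivator of mitochondrial genes, and Esrrg, an estrogen-related receptor, rose by 0.47 and 0.40 (adjusted p = 0.0299 and 0.0362, edgeR). The other 5 did not pass the test, with log2 fold changes of 0.60 for Ppargc1a, 0.14 for Yy1, 0.07 for Gabpb1, -0.06 for Esrra and -0.10 for Tfam. Without the 3 WT males the value of Esrra was 0.04.

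The promoters of the members were searched for the motifs of these factors, in the RefSeq window from 250 bases before to 50 after the start, on both strands. A window was at hand for 40 members (33 subunits and 7 assembly factors) and for 27025 genes in all. For 33 of the 40 members, a RefSeq start lay within 100 bases of the 5′ end in GENCODE. The NRF1 motif, the 10 letters in capitals in the Ndufaf4 promoter, was found in 3 of 40 (7.5%), against 1.07% of all promoters. The GABP motif CCGGAAGTG was found in 1 of 40, against 2.25% of all, and the ERR motif TCAAGGTCA in 0 of 40, against 0.466% of all. A shorter core of each motif, lying within the longer one, was found in 5 of the 40 for NRF1 (GCATGCGC, 3.05% of all promoters), 6 for GABP (CCGGAAG, 9.93% of all), 3 for ERR (AAGGTCA, 5.38% of all) and 8 for YY1 (AAGATGGC, 3.19% of all). The YY1 motif, the 11 letters in capitals in the lines so marked below, was found in 5 of 40 (12.5%), against 0.755% of all. The motif of ATF4, TGATGCAA, was added after the values were seen and was found in 0 of 40, against 1.03% of all. A match describes these letters only. The 30-base windows around the matches outside the Ndufaf4 promoter are shown with the motif in capitals, as the sequence that these members share, each 5′ to 3′ on the strand of its gene in GRCm38.p6.
Ndufa11 (NRF1, chr17:56717692-56717721, plus strand): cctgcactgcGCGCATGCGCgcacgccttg
Ndufaf5 (NRF1, chr2:140170652-140170681, plus strand): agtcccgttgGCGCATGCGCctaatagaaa
Ndufs3 (GABP in reverse, chr2:90904703-90904732, minus strand): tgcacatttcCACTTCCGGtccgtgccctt
Ndufa9 (YY1, chr6:126849095-126849124, minus strand): ttgtgggagAAGATGGCGGCcgccgtccgc
Ndufaf8 (YY1, chr11:120098935-120098964, plus strand): gcagggcccAAGATGGCGGCgccctcgaga
Ndufs4 (YY1, chr13:114388045-114388074, minus strand): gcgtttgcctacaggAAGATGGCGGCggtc
Ndufs6 (YY1, chr13:73328433-73328462, minus strand): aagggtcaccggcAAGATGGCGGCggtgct
Ndufs7 (YY1, chr10:80249464-80249493, plus strand): gccgaggccAAGATGGCGGCgctggcgggt

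The NRF1 motif began 113 bases before the start in Ndufaf4, 60 bases before it in Ndufa11 and 17 bases after it in Ndufaf5. These 3 members did not share a direction, since Ndufaf4 rose (0.29) while Ndufa11 (-0.32) and Ndufaf5 (-0.33) fell. All 5 YY1 matches read forward and began 11 to 36 bases after the start, and 4 of them, all but that of Ndufaf8, overlapped the annotated start codon. Their genes fell by 0.22 (Ndufaf8) to 0.71 (Ndufs6) on the log2 scale, within the range of the other members. Ndufa1, whose upstream sequence is printed above, held none of these motifs and fell most.

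Kallisto gives values per transcript, so the share of each transcript within its gene was tested in the 35 members with at least 2 transcripts of sufficient count. By the Simes test 2 members were called, Ndufs1 (adjusted p = 0.00493) and Ndufv1 (adjusted p = 0.0311, edgeR), against 3.08% of the 9058 genes tested. The F test of the same fit called 5, against 10.1% of all genes. The transcript behind the first call was Ndufs1-210, a retained intron form of 826 bases. As a share of the summed TPM of Ndufs1, it made up 24.9% in WT male S11, 6.50% in S15 and 5.46% in S03, and 0.373% to 2.50% in the other mice. For Ndufv1-207 the shares of the TPM of Ndufv1 were 25.7% in S11, 18.6% in S03, 15.6% in S15 and 11.7% in BKO male S12, and 0.813% to 5.44% in the other mice. Both transcripts were highest in the same 3 WT males that stood apart by length. Without them 0 members were called, in a fit that then held 5 WT mice.

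Some markers of other cells moved with genotype, where 20.2% of all genes tested were called lower and 20.8% higher. The lists are short, so counts near these shares are not read as results about a cell type. Of 7 macrophage markers 6 rose, with sums of 83.0 to 121 CPM in WT and 115 to 467 CPM in BKO mice. Of 8 brown adipocyte markers 3 fell (Cidea, Cox7a1 and Cox8b) and Elovl3 rose, while Ucp1 was 4758 ± 1319 CPM in WT and 3437 ± 1075 CPM in BKO mice (SD, n = 8; log2 fold change -0.46, adjusted p = 0.0738, edgeR), so the labelled tissue carried its defining marker in every group. Of 7 markers of all adipocytes 4 fell and 1 rose. Of 4 endothelial markers 3 fell, of 4 fibroblast markers 3 rose, of 3 smooth muscle markers 3 fell, and of 5 lymphocyte markers 2 fell with sums of 1.54 to 7.32 CPM. None of 6 skeletal muscle markers passed the test. The part of these cells in the decrease of the Nduf genes was not tested. Without the 3 mice of high muscle markers 41 members fell, against 16.4% of all genes.

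Some counts could be shared with copies. Of the 46 members, 32 shared under 10% of their 31-base words with any other gene. For Ndufb4, 19.1% of the words occur in the pseudogene Ndufb4c, which received more counts than the gene in every mouse (means of 2612 for Ndufb4c and 1366 for Ndufb4) and fell by 0.48 on the log2 scale (adjusted p = 0.000457, edgeR), so the level of Ndufb4 is uncertain. A gene on the other strand overlapped 17 members and a gene on the same strand overlapped 6, and whether the quantification used the strand that the kit marks is not given in the sources used here.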

How the data were processed

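RNA-seq libraries of BAT from 16 mice, aged 7 weeks, were grouped by the labels into WT and OPA1 BKO females and males (4 each). The labels name no litters, dates or pairs, and p-values measure the spread between these mice. A stranded kit with selection of polyadenylated RNA was used. The authors quantified reads with kallisto 0.45.0 and deposited, per transcript, an estimated count (raw in scale, often fractional) and a TPM, scaled by effective length to the same total in each mouse. The labels give the build mm10. The alignment route in the methods was not used here.

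Transcript identifiers were matched to genes in GENCODE M21 (GRCm38), which placed 133284 of 135308. Unmatched ones held 0.483% to 0.730% of the counts. Estimated counts and TPM were summed per gene. Counts were rounded, filtered with filterByExpr (minimum count 10, minimum total 15), normalized by TMM and tested, two-sided, with edgeR 4.0.16 (R 4.3.3, limma 3.58.1) by the quasi-likelihood test with sex in the model, or with 1 mean per group for contrasts within and between sexes. P-values were adjusted by Benjamini-Hochberg over 15632 genes, with 0.05 as the threshold. Fold changes used a prior count of 0.125. Transcript usage was tested with diffSpliceDGE over 9058 genes. A count of 0 allows up to 3 counts, or 0.130 to 0.220 CPM by library, counting error only. Mice of a group differed by 21.6 to 120 times counting noise, so no library was a copy. Scripts were tested on simulated data.

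The members and lists were chosen with earlier results of these data known, and no test over the list is given. Values were given by mouse, or by range, median or mean, for the 5 most and 3 least negative subunits and all assembly factors. The same held for members against their class and members called for sex or usage. The nuclear core subunits were given by group. The values of 1 member, which is counted in the class summaries, are not reported here. Lists held the mt-Nd genes, other assembly factors, regulators, respiratory chain families and cell markers. Coa1 and Tmem261 were not found under these symbols. Promoter sequences are RefSeq's (GRCm38.p6), matched by symbol. Alternatives were DESeq2 1.42.0, RLE or library size, no mitochondrial genes, no filter, a minimum mean TPM of 1, sex left out, each mouse left out, Nduf genes without Ndufa4 and Ndufa4l2, an F test of usage and shorter motifs. Leaving out mice by muscle markers or length index, and the length index as a covariate, were chosen after seeing the data.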

Additional observations from a re-analysis of the deposited data

Results flagged for a closer look

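Within each group of 4 mice, the level of each member was examined for a mouse far from the other 3, by Dixon's ratio at its 95% critical value. Of 184 groups of values 12 had such a mouse, where chance gives 1 in 20, or about 9.2. WT female S05 was high for Ndufa10 (796 CPM, others 679 to 688), Ndufab1 (498, others 410.3 to 422), Ndufb8 (956, others 797 to 819.6) and Ndufs5 (266, others 217 to 219.7). BKO male S12 was high for Ndufb8 (574, others 513 to 522), Ndufb9 (552, others 485 to 491) and Ndufs8 (239, others 183 to 191), and low for Ndufb6 (136, others 166 to 170.4) and Ndufaf4 (53.2, others 69.8 to 69.98). WT male S11 was high for Ndufa10 (882, others 817 to 824), and WT male S07 was low for Ndufa4 (1022, others 1185 to 1196) and Ndufs6 (242, others 283 to 288). S05 and S12 thus account for 9 of the 12. S12 also had the highest length index among BKO mice (0.161) and the highest sum of macrophage markers (467 CPM), and the part of either in these values was not tested.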

How the results depend on the processing

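No paired analysis was possible because each mouse had a library number of its own and the labels name no pairs or litters. Apart from library size alone, 30 of the 46 members had the same call under each of the 25 other alternatives run on them, and 3 changed sign in 1 of them. Ndufaf8 lost its call in 10 of these, Ndufa12 in 5 and Ndufa11 in 2. Of the members not called in the main fit, Ndufaf6 gained a call in 3, Ndufa4l2 in 2 and Ndufs1 in 1. With library size alone 7 members were called lower and 11 higher, against 2.39% and 69.5% of all genes. These were 7 and 5 subunits and 0 and 6 assembly factors, with medians of -0.011 and 0.21. In females 3 were called lower and 10 higher, and in males 10 and 6. The shares of all genes within each sex are not given for this scaling, so these counts are not read as results about the members. With library size alone, the counts called lower and medians were 4 and -0.032 for cytochrome c oxidase, 5 and 0.14 for ATP synthase, 3 and 0.28 for the mitochondrial ribosome, 1 and 0.050 for complex II and 2 and -0.056 for complex III, and 0 for the other assembly factors. Genes whose sign turned included Ndufs1 (0.47), Ndufaf6 (0.36), Ndufaf8 (0.34), Ndufs4 (0.28), Ndufa4l2 (0.28), Ndufa12 (0.26), Ndufa11 (0.23), Ndufaf5 (0.23), Ndufaf2 (0.19), Ndufaf1 (0.18), Ndufaf7 (0.15), Ndufb10 (0.12), Ndufb9 (0.10), Ndufa9 (0.078), Ndufv1 (0.064), Ndufv3 (0.060), Ndufb2 (0.047), Ndufa5 (0.0445), Ndufa2 (0.0425), Ndufaf3 (0.026), Ndufa13 (0.0092), Ndufb7 (0.0054) and Ndufb4 (0.0052), and also Acad9 (0.52), Nubpl (0.46), Timmdc1 (0.43), Lyrm2 (0.35), Ecsit (0.31), Tmem126b (0.22), Tmem186 (0.17), Foxred1 (0.16), Dmac1 (0.056), Esrra (0.50) and Tfam (0.46). This scaling leaves the unequal mitochondrial share in the library size.

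With the length index as a covariate 0 members were called higher, 3 assembly factors lower and 0 higher. Ndufs1, not called in the main fit, was then called lower (-0.26, adjusted p = 0.023, edgeR). The medians were -0.38 for subunits, -0.20 for assembly factors, -0.24 for ATP synthase, -0.47 for complex III and -0.17 for the mitochondrial ribosome (30 lower). Ndufa12 (0.026), Ndufa4l2 (0.0195), Ndufaf6 (0.021) and Yy1 (-0.0056) changed sign. Without the 3 mice of high length index 0 members were called higher in both sexes together, in males, among assembly factors or between WT sexes (in males and between WT sexes with 1 WT male left, where lost replicates alone can end calls), the ATP synthase median was -0.31, Esrra was 0.041 and 0 members were called for transcript usage. Without the 3 mice of high muscle markers 0 members or assembly factors were called higher, and 0 between WT sexes. DESeq2 called 12 members for the interaction and 24 between WT sexes, and library size alone and no filter on low counts called 0 between WT sexes. Without a filter Acad9 was 0.015. The F test called 5 members for usage. Shorter motif cores were found in 5 promoters for NRF1, 6 for GABP, 3 for ERR and 8 for YY1. Leaving out 1 mouse at a time gave 0 to 1 member for the interaction, 0 to 20 between WT sexes, and 0 to 3 for usage, with 0 without BKO male S08, WT male S11 or BKO male S16. The causes were not tested.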
